A study of Mus musculus with 12 samples.

Results

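The renin-angiotensin system is the hormone cascade that telmisartan acts on, and this account follows its genes in BV2 cells, an immortalised mouse microglial line. The genes were taken from a list of 9 symbols covering the precursor, its converting enzymes and the receptors. A gene counted as measured when the platform annotation gave it as the only symbol of an array feature, and 7 of the 9 did (Agt, Ace, Agtr1a, Agtr1b, Agtr2, Mas1 and Atp6ap2), each with 1 feature, out of 22180 genes measured in the series. Ren1, which encodes renin, and Lnpep, an aminopeptidase that binds a short angiotensin fragment, were not analysed here.

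Renin cuts angiotensinogen, the product of Agt, to angiotensin I, and the peptidase encoded by Ace trims that to angiotensin II. Angiotensin II acts mainly through the AT1 receptor, which raises blood pressure and in the brain is linked to inflammatory signalling, while the AT2 receptor and the Mas receptor are generally described as opposing it. Rodents carry a pair of AT1 genes, Agtr1a and Agtr1b. Telmisartan blocks the AT1 receptor and is also a partial agonist of the nuclear receptor PPAR gamma.

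Each of 4 groups had 3 arrays, and all treatments contained 1.5% DMSO. The telmisartan+LPS group received telmisartan for 2 h followed by LPS (lipopolysaccharide, the endotoxin of Gram-negative bacteria) for 1 h. The telmisartan group received the drug alone for 3 h. The LPS group received vehicle for 2 h and then LPS for 1 h, and the DMSO group received vehicle for 3 h. The cells are wild type and come from 1 line, and for both agents the sources used here state no dose. The labels call the samples independent without tying an array to a culture, so p-values measure the spread between arrays, which may be technical.

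Signals are log2 RMA values, and a level is given as the log2 signal minus the median of all 41345 features of the same array. Those medians lay between 4.08 and 4.13, and arrays correlated at 0.995 to 0.9974 over genes. Probes of different genes differ in brightness, so the level places a gene within the array's range and does not rank the RNA of different genes. Of 11 microglia and macrophage markers 10 were above the array median on all 12 arrays. Among them Cd68 was at 8.135, Csf1r at 6.37 and Itgam at 5.74. Aif1 at 2.375, Cx3cr1 at 1.20 and Tmem119 at 0.75 stood nearer the median. P2ry12, a receptor of resting microglia, was at -0.52 and below the median on every array. In the other marker lists 1 of 4 astrocyte, 1 of 3 neuron, 0 of 3 oligodendrocyte, 2 of 3 endothelial and 3 of 4 smooth muscle and fibroblast genes were above it on all arrays, the brightest being Acta2 at 2.45. The mean level of the 11 microglial markers per array was 4.25 to 4.27 with telmisartan+LPS, 4.17 to 4.19 with telmisartan, 4.22 to 4.27 with LPS and 4.16 to 4.25 with DMSO. The part of these markers in the results was not tested. On principal components of all genes 2 arrays stood apart. Telmisartan+LPS replicate 3 was at 20.18 on the second component, with the others from -9.78 (LPS replicate 3) to 6.83. Telmisartan+LPS replicate 1 was at 17.31 on the third, with the others from -8.38 (LPS replicate 3) to 7.28. For the differences of single renin-angiotensin genes below that use the telmisartan+LPS arrays, values without each of these 2 arrays are given as well. For genes of the other lists they are given mostly as a range over the named differences.

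Most of the cascade was dim in these cells. Only Atp6ap2, which encodes the (pro)renin receptor, was bright, at 5.55 above the array median, and 5 of the 7 genes were below the median on all 12 arrays. To set these levels against genes that microglia are not known for, 1105 olfactory receptor genes on the same arrays were used as a dim comparison. Their median level was -1.36, and their 95th percentile 0.0173. Agtr1a at -0.86 was brighter than 80.5% of them, Agtr1b at -0.46 than 91.0%, Agtr2 at -1.06 than 73.6%, Mas1 at -0.83 than 81.7% and Ace at -0.53 than 88.9%. The receptor genes that bind angiotensin II and the converting enzyme gene therefore lay between the 5th (-1.76) and the 95th percentile of olfactory receptor levels. At such levels in bulk RNA, few expressing cells, little RNA per cell and probe background without any RNA cannot be told apart.

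**Figure D1:**
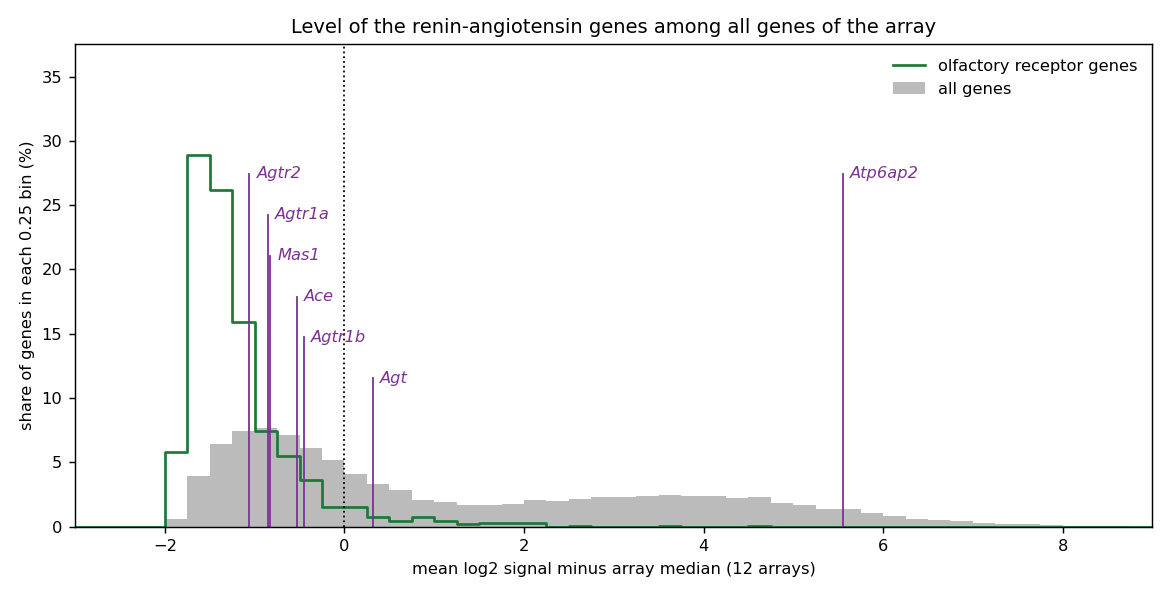
Level of each renin-angiotensin gene (purple lines; the height of a line only spaces the labels) against the distribution of all 22180 genes (grey bars) and of 1105 olfactory receptor genes (green outline). The x axis is the mean log2 signal over 12 arrays minus the array median (dotted line), and the y axis is the percentage of genes in each bin of 0.25. Agtr2, Agtr1a, Mas1, Ace and Agtr1b lie left of the array median, Agt lies just right of it, and Atp6ap2 stands at 5.55.

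The sequences just upstream of the transcription start were compared for the 6 measured genes with an entry in the RefSeq promoter table (build GRCm38.p6), that is all but Agtr1a. Shown are the 100 bases before the start of Atp6ap2, the bright gene, and of Agtr1b and Agt, which share a core promoter motif. Capitals mark TATAAA, and positions count back from the base before the start as -1.
Atp6ap2 (chrX:12587659-12587758, plus strand): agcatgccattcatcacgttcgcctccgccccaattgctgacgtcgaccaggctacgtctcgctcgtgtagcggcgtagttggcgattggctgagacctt
Agtr1b (chr3:20367178-20367277, minus strand): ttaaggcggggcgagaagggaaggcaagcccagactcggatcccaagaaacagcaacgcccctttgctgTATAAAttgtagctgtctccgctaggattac
Agt (chr8:124569707-124569806, minus strand): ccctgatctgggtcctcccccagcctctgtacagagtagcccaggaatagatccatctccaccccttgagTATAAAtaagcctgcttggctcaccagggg

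TATAAA, the usual form of the TATA box, was searched on both strands of the 250 bases upstream. It began at -31 in Agtr1b and at -30 in Agt on the gene strand. In Ace it was found on the other strand alone, at -31 of the first of 2 listed starts, and the windows of Agtr2, Mas1, Atp6ap2 and the second Ace start held none. RefSeq lists 32851 promoters, of which 12.4% held the motif on either strand, and 1.99% had it beginning between 40 and 20 bases upstream on the gene strand. The 250 bases of Atp6ap2 held 20 CG dinucleotides, more than 82.1% of promoters, against 5 in Agtr1b, 3 in Agtr2, 2 in Mas1 and 0 in Agt, with a median of 6 over all promoters. Ace had 19 at its first start and 1 at its second. These matches describe the sequence and say nothing of a factor's binding in BV2 cells.

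None of the 7 genes passed the test with LPS, with telmisartan or with both. Over 6 comparisons, which share arrays, 0 of 42 changes passed an adjusted p of 0.05 in limma with Benjamini-Hochberg adjustment over all 22180 genes, and 1 of 42 had an unadjusted p under 0.05. Of all genes, LPS minus DMSO called 0.428%, and telmisartan+LPS called 0.261% over telmisartan and 0.18% over DMSO. No gene (0%) was called with telmisartan over DMSO, with telmisartan+LPS over LPS, or in the interaction, which is the LPS effect with telmisartan minus the LPS effect without it. An unadjusted p under 0.05 was found for 9.02% of all genes with LPS over DMSO, 5.51% with telmisartan over DMSO, 9.81% with telmisartan+LPS over LPS, 13.6% with telmisartan+LPS over telmisartan, 11.4% with telmisartan+LPS over DMSO and 7.78% in the interaction. Of 35 differences of the 7 genes in the compared pairs of groups, 1 had groups that did not overlap. Telmisartan against LPS was not among those pairs. The share of all genes without overlap was 15.7%, 11.4%, 13%, 17% and 15.1% in the same order of pairwise comparisons. With so few calls anywhere, 0 of 7 is close to this background and is not a result particular to these genes. On the same arrays LPS over DMSO raised the cytokine genes Il6 by 3.75 (SE 0.24) and Tnf by 1.60 (SE 0.09), with limma adjusted p of 1.41e-06 and 8.21e-07. For the renin-angiotensin genes the 95% intervals for LPS minus DMSO ran at the widest from 0.756-fold (Ace) to 1.32-fold (Agtr1a), and for telmisartan minus DMSO from 0.786-fold (Agtr1a) to 1.27-fold (Ace). Those folds are of RMA signal, which for dim probes includes background and can understate a change in RNA.

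**Figure D2:**
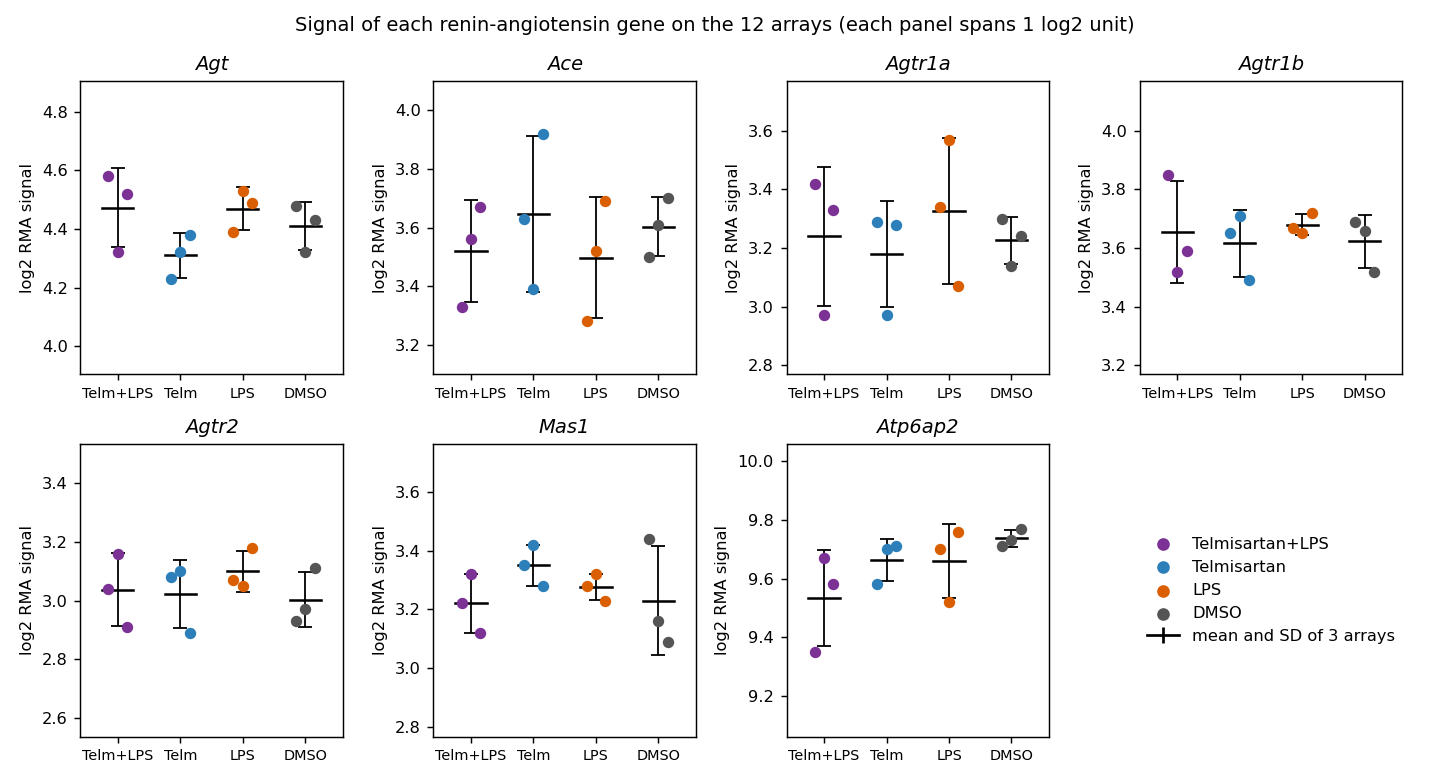
Log2 RMA signal of each gene on every array, by group (Telm is telmisartan). Points are arrays, horizontal lines are means and bars are the SD of 3 arrays, and each panel spans 1 log2 unit, so that panels share a scale but not a position. The groups overlap or touch in every pairing shown except telmisartan+LPS against DMSO for Atp6ap2 and telmisartan against LPS for Agt.

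Agt encodes angiotensinogen, the only known precursor of the angiotensins, which in brain is made mainly by astrocytes. Its signal was 4.58, 4.32 and 4.52 with telmisartan+LPS, 4.23, 4.32 and 4.38 with telmisartan, 4.39, 4.53 and 4.49 with LPS, and 4.48, 4.32 and 4.43 with DMSO. The arrays with telmisartan alone were the lowest as a group and all lay below the LPS arrays, by 0.01 at the nearest, a pair that no comparison of the design tests. The other pairs of groups overlapped. For telmisartan against LPS the share of all genes without overlap was not counted. In the compared pairs it ran from 11.4% to 17%, so this gap is not a result particular to Agt. The mean level was 0.32 above the median of all features, and was above it on 12 of 12 arrays. Against the median of the features with a single gene symbol it was at 0.028 and above it on 8 of 12 arrays. The largest difference was telmisartan+LPS minus telmisartan, at 0.16 (SE 0.08, 95% interval -0.01 to 0.34), with an unadjusted p of 0.0686 and an adjusted p of 0.401 in limma. Without telmisartan+LPS replicate 1 it was 0.11, without replicate 2 it was 0.24, and without replicate 3 it was 0.14. Telmisartan minus DMSO was at -0.10 (SE 0.08, limma adjusted p = 0.957) and LPS minus DMSO at 0.06 (SE 0.08, limma adjusted p = 0.876).

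Ace encodes the angiotensin-converting enzyme, a membrane peptidase best known from endothelium. It read 3.33, 3.56 and 3.67 with telmisartan+LPS, 3.63, 3.39 and 3.92 with telmisartan, 3.28, 3.52 and 3.69 with LPS, and 3.50, 3.61 and 3.70 with DMSO. Arrays of 1 group differed by up to 0.53, more than the 0.15 between the highest and lowest group mean. Its residual SD of 0.196 was above that of 90.1% of genes, where the median gene had 0.117. Replicate 3 was the highest array for Ace in every group, though no label pairs arrays across groups. LPS minus DMSO was at -0.11 (SE 0.14, 95% interval -0.40 to 0.19) and telmisartan minus DMSO at 0.04 (SE 0.14, 95% interval -0.25 to 0.34), with adjusted p of 0.864 and 0.995 in limma.

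Agtr1a, the main AT1 receptor gene of rodents and the drug's target, read 3.42, 2.97 and 3.33 with telmisartan+LPS, 3.29, 2.97 and 3.28 with telmisartan, 3.34, 3.57 and 3.07 with LPS, and 3.30, 3.14 and 3.24 with DMSO. The lowest 2.97 occurred in both telmisartan groups and the highest in LPS, and the 4 groups overlapped. On every array the gene stood between the 19.8th and the 37.9th percentile of features. Its group means differed by 0.15 at most, against a residual SD of 0.199. The change with telmisartan was -0.05 (95% interval -0.35 to 0.25) over DMSO and -0.09 (95% interval -0.39 to 0.21) over LPS, and that with LPS over DMSO was 0.10 (95% interval -0.20 to 0.40). The limma adjusted p was 0.995, 0.875 and 0.878 in that order. Over LPS, Agtr1a was at -0.18 without telmisartan+LPS replicate 1 and at -0.13 without replicate 3.

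Agtr1b, the second rodent AT1 gene, was steadier. It read 3.85, 3.52 and 3.59 with telmisartan+LPS, 3.65, 3.71 and 3.49 with telmisartan, 3.67, 3.65 and 3.72 with LPS, and 3.69, 3.66 and 3.52 with DMSO. Its 4 group means lay within 0.063 of each other, less than its residual SD of 0.115. The change with telmisartan was -0.01 (95% interval -0.21 to 0.19) over DMSO, which is 0.867-fold to 1.14-fold, and -0.03 (95% interval -0.23 to 0.17) over LPS. LPS minus DMSO was at 0.06 (95% interval -0.14 to 0.26). The limma adjusted p was 0.996, 0.947 and 0.900 in that order. Over LPS, Agtr1b was at -0.125 without telmisartan+LPS replicate 1 and at 0.005 without replicate 3. The AT1 genes are closely related, and whether a probe of one also binds RNA of the other was not tested.

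Agtr2, the gene of the AT2 receptor, read 3.04, 3.16 and 2.91 with telmisartan+LPS, 3.08, 3.10 and 2.89 with telmisartan, 3.07, 3.05 and 3.18 with LPS, and 2.93, 2.97 and 3.11 with DMSO. The LPS mean was the highest, by 0.063 over the next group, less than the residual SD of 0.104. LPS minus DMSO was at 0.10 (SE 0.09, limma adjusted p = 0.784), and telmisartan minus DMSO at 0.02 (SE 0.09, limma adjusted p = 0.996). Telmisartan+LPS minus LPS was at -0.06 (SE 0.09, limma adjusted p = 0.847), at -0.065 without telmisartan+LPS replicate 1 and at 0 without replicate 3.

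Mas1 encodes the Mas receptor, on which shorter angiotensin peptides act. It read 3.22, 3.32 and 3.12 with telmisartan+LPS, 3.35, 3.42 and 3.28 with telmisartan, 3.28, 3.32 and 3.23 with LPS, and 3.44, 3.16 and 3.09 with DMSO. The telmisartan mean was the highest of the 4, yet the single highest array was DMSO replicate 1. Telmisartan minus DMSO was at 0.12 (SE 0.09, limma adjusted p = 0.955), and at 0.225 without that array. The interaction was -0.18 (SE 0.13, 95% interval -0.46 to 0.10, limma adjusted p = 0.734). Single arrays moved it by over 1.5 times: it was -0.28 without DMSO replicate 1 and -0.11 without DMSO replicate 3. Leaving out telmisartan+LPS replicate 1 gave -0.18, and leaving out replicate 3 gave -0.13. It was made up of -0.13 for LPS with telmisartan (telmisartan+LPS minus telmisartan) and 0.05 for LPS without it (LPS minus DMSO), and the test did not separate these effects. The first of them came to -0.13 with telmisartan+LPS replicate 1 left out and to -0.08 with replicate 3 left out. No other gene of the 7 had an interaction with a lower p.

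Atp6ap2 encodes the (pro)renin receptor, a membrane protein that binds renin and its precursor and is also an accessory part of the vacuolar proton pump (V-ATPase). It read 9.35, 9.67 and 9.58 with telmisartan+LPS, 9.58, 9.70 and 9.71 with telmisartan, 9.70, 9.52 and 9.76 with LPS, and 9.71, 9.73 and 9.77 with DMSO. The DMSO arrays were the highest as a group and every telmisartan+LPS array lay below all of them, while telmisartan and DMSO met at 9.71 and the remaining pairs of groups overlapped. Telmisartan+LPS averaged 9.53 ± 0.17 and DMSO 9.74 ± 0.03 (SD, n = 3 each), a difference of -0.20 (SE 0.09, 95% interval -0.40 to -0.01), or 0.869-fold. Its unadjusted p was 0.0415 and its adjusted p 0.418 in limma, and 15.1% of all genes had groups that did not overlap in that comparison. Without telmisartan+LPS replicate 1, the lowest array, the difference was -0.11 (limma adjusted p = 0.672), and without replicate 3 it was -0.23 (limma adjusted p = 0.495). Without replicate 2, the highest of that group, the difference was -0.27 (limma adjusted p = 0.261). The remaining changes were -0.13 for telmisartan+LPS minus telmisartan, -0.13 for telmisartan+LPS minus LPS, -0.08 for LPS minus DMSO and -0.07 for telmisartan minus DMSO, with limma adjusted p of 0.555, 0.672, 0.845 and 0.978. Without telmisartan+LPS replicate 1 those over telmisartan and over LPS were -0.04 and -0.035, and without replicate 3 both were -0.15. All 5 differences were negative, but the groups are shared among them, so the shared sign is not independent evidence.

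**Figure D3:**
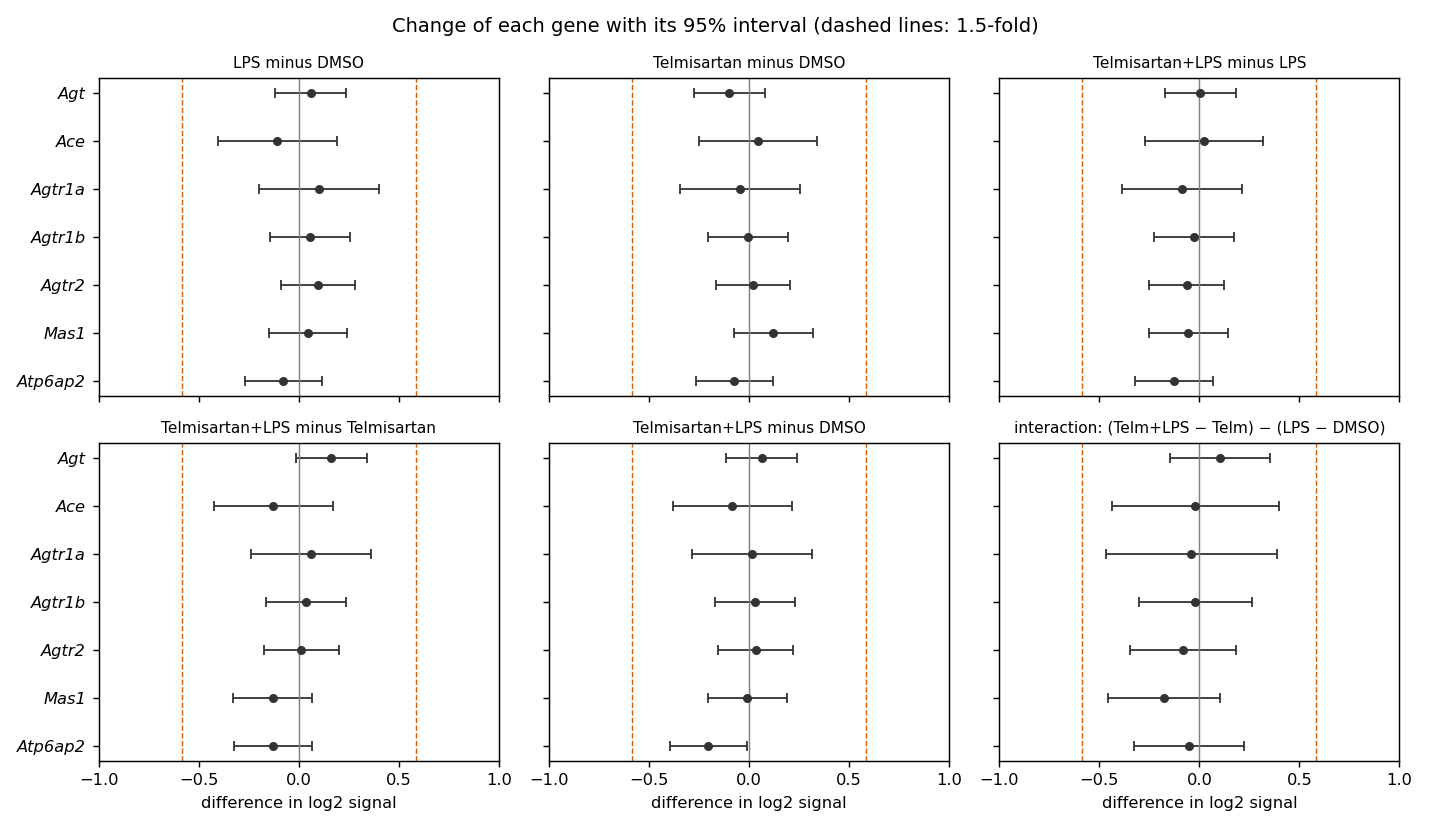
Difference in log2 signal of each gene in the 5 pairwise comparisons and the interaction, with its 95% interval from the limma fit (Telm is telmisartan). Dashed lines mark 1.5-fold, and every interval lies inside them. The interval that leaves out 0 is that of Atp6ap2 for telmisartan+LPS minus DMSO, from -0.40 to -0.01.

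The median difference of the 7 genes was set against that of all genes, without a test. It was 0.06 for LPS minus DMSO against -0.01 for all genes, -0.01 against -0.01 for telmisartan minus DMSO, and -0.06 against 0.01 for telmisartan+LPS minus LPS. It was 0.013 against 0.013 for telmisartan+LPS minus telmisartan, 0.013 against 0.003 for telmisartan+LPS minus DMSO, and -0.04 against 0.017 for the interaction. The median absolute change of all genes was 0.077 for LPS minus DMSO and 0.08 for telmisartan+LPS minus LPS. Between 5 genes higher and 2 lower (LPS minus DMSO) and 1 higher and 6 lower (the interaction), the split of signs varied by comparison. The 2 genes above the array median were also set against all 19238 named genes by correlation over the 12 arrays. The patterns most like that of Atp6ap2 were those of Snhg1 (Pearson r = 0.963), Mcm6 (0.941) and Otud4 (0.938). Those most like Agt were Hotair (0.904), Lrrc29 (0.870) and P2ry12 (0.869). The points share arrays and normalization, Agt ranged over 0.35 log2 units in all, and the highest of so many correlations is large by selection.

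The other genes of the pathway were described from 4 further lists. Of 18 measured peptidases, receptors and an AT1-associated protein outside the 7, 10 were above the array median on all 12 arrays and 8 were below it on all. The bright ones included peptidases that trim or degrade angiotensins in other tissues, such as Anpep (level 6.28), Prep (6.61), Prcp (5.38) and Thop1 (4.64), and the lysosomal proteases Ctsa (7.52) and Ctsd (7.865). Agtrap, whose protein binds the AT1 receptor and promotes its internalisation, was at 2.55. Below the median were Mme (-0.94), Enpep (-0.97), the mast cell proteases Cma1 (-1.13) and Mcpt4 (-1.53), and Mrgprd (-0.91), a receptor related to Mas. Of 21 signalling genes downstream of the receptor 16 were above the median on all arrays, among them Gnaq (4.345), which encodes the G protein subunit that AT1 couples to, Arrb2 (5.14) and Rgs2 (5.60). Of 17 V-ATPase subunit genes 15 were above it, and of 9 M1 aminopeptidase genes, the family of Lnpep, 7 were. Anpep, Enpep and Rnpep stand both among the peptidases and in the aminopeptidase list.

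No gene of these 4 lists passed the limma threshold in any of the 6 comparisons. For LPS minus DMSO the unadjusted p was under 0.05 in 1 of 18 processing genes, 2 of 21 signalling genes, 0 of 17 V-ATPase genes and 1 of 9 aminopeptidase genes, against 9.02% of all genes. For telmisartan minus DMSO it was under 0.05 in 0, 1, 0 and 0, against 5.51% of all genes, and for telmisartan+LPS minus LPS in 2, 3, 1 and 2, against 9.81%. Such counts are too small to set apart from the background. List medians lay between -0.10 (aminopeptidases, LPS minus DMSO) and 0.02 (processing genes, telmisartan+LPS minus LPS) in these 3 comparisons.

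With LPS over DMSO the largest differences by list were in Klk1 (-0.19) and Mcpt4 (-0.18), in the G protein regulator Rgs2 (-0.24) and the kinase gene Jak2 (0.20), in Atp6v0a2 (-0.11) and Atp6v0e2 (0.11), and in Rnpep (-0.17) and Trhde (-0.16). With telmisartan over DMSO they were in Klk1 (-0.16) and Prcp (0.14), in Prkcb (-0.20) and Rgs2 (-0.14), in Atp6v1f (-0.13) and Atp6v0d2 (-0.12), and in Trhde (-0.17) and Aopep (-0.14). With telmisartan+LPS over LPS they were in Mrgprd (0.39) and Mcpt4 (0.29), both dim, in Rock1 (-0.22) and Jak2 (-0.19), in Atp6v0e (-0.19) and Atp6v1f (0.13), and in Npepps (-0.34) and Rnpepl1 (0.24). The lowest adjusted p in limma among these 24 differences was 0.290, that of Npepps. With telmisartan+LPS over telmisartan the largest differences were in Mrgprd (0.31) and Cpa3 (0.25), in Grk5 (-0.41) and Prkcb (0.24), in Atp6v0d2 (0.23) and Atp6v1f (0.17), and in Npepps (-0.22) and Erap1 (-0.22). With telmisartan+LPS over DMSO they were in Mrgprd (0.28) and Mme (0.23), in Grk5 (-0.33) and Rock1 (-0.24), in Atp6v0e (-0.15) and Atp6v1c1 (-0.15), and in Npepps (-0.22) and Erap1 (-0.20). In the interaction they were in Mrgprd (0.42) and Mcpt4 (0.34), in Prkcb (0.33) and Grk5 (-0.26), in Atp6v1f (0.26) and Atp6v0d2 (0.25), and in Npepps (-0.35) and Rnpepl1 (0.33). None of these was called. For telmisartan+LPS over LPS, Mrgprd differed by 0.39 (SE 0.10, 95% interval 0.18 to 0.61) with an adjusted p of 0.304. Without telmisartan+LPS replicate 1 it was at 0.39 and without replicate 3 at 0.285. Over the 32 named differences that use the telmisartan+LPS arrays, 0 turned sign without either array, the size lay between 0.529 and 1.42 times that with all arrays, and the lowest adjusted p in limma was 0.179. Of the 28 such differences of the 7 renin-angiotensin genes, 8 turned sign without replicate 1 and 6 without replicate 3, and the lowest adjusted p in limma was 0.495. The list genes were named for the largest changes on these same arrays, which makes a turn of sign unlikely. The renin-angiotensin genes were not picked by size of change, so the counts of turned signs cannot be set against each other.

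**Figure D4:**
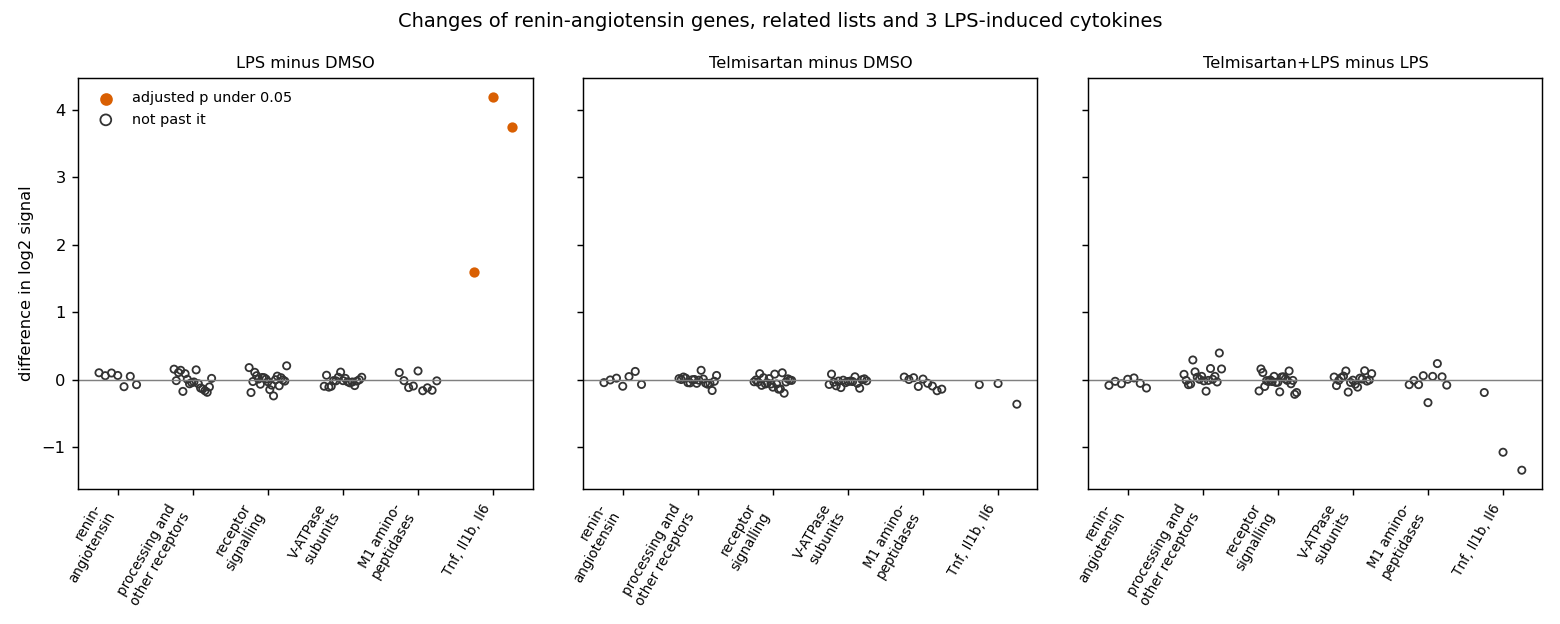
Difference in log2 signal of the 7 renin-angiotensin genes, of 4 related gene lists and of 3 LPS-induced cytokine genes in 3 comparisons. Each point is a gene, and filled points passed an adjusted p of 0.05. For LPS minus DMSO Tnf, Il1b and Il6 stand at 1.60, 4.19 and 3.75, and no filled point lies in another list or comparison shown.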

How the data were processed

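The authors deposited log2 RMA signals from second-generation Affymetrix mouse gene arrays, made in Expression Console (engine 1.4.1.46) with background correction, quantile normalization over the 12 arrays, perfect-match probes and median polish, per the file headers. Quantile normalization gives the probe values of every array the same distribution, so levels are relative to the other features. Medians of the summarised features can still differ slightly between arrays. A second deposited table held the same log2 values to more decimals (largest difference 0.005) and served as an alternative. Both held 0 columns of other samples.

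Of 41345 features 23521 had a single symbol in the platform annotation, 1820 had several and 16004 none, and 23328 features were matched through Entrez identifiers. The feature with the highest mean represented each gene. All 12 arrays entered 1 limma fit (limma 3.58.1, R 4.3.3, statmod 1.5.0) with 4 group means, 8 residual and 4.99 prior degrees of freedom, 2-sided tests and Benjamini-Hochberg adjustment over 22180 genes. The fit was also run on simulated data with independent noise for each gene, and the outcome is not reported here. Such data hold no differences shared by the genes of an array, so they cannot check the fit for the present arrays. Arrays have no read depth, so their number sets the precision.

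The members and lists were chosen with earlier results of these data known. All 7 measured members were named in the text. From each other list the 2 genes with the largest absolute change were named in each comparison, and for members above the median on all arrays the 3 most correlated genes, leaving out predicted gene models. Levels of other genes in those lists and markers were given as examples chosen after their values were seen. Alternatives were trend and robust options, dim genes left out, the second table, array medians subtracted, the compared groups alone, the mean of a gene's features, another median for the level, each array left out and, added after seeing the data, sets of arrays by running number as a block.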

Additional observations from a re-analysis of the deposited data

How the results depend on the processing

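The number of renin-angiotensin genes called was 0 under all 19 alternative settings in each of the 6 comparisons they could be run for, and so was the number called in the other lists. Several settings could hardly alter this count. Each of the renin-angiotensin genes had 1 feature, so the mean of a gene's features left their changes as they were. The second table differed by 0.005 at most. Leaving out an array of a group outside a pairwise comparison left its difference as it was. The compared groups alone cannot give the interaction. The lowest adjusted p of a member over these settings was 0.219, for Agt in telmisartan+LPS minus telmisartan without telmisartan+LPS replicate 2 in limma. Leaving out genes below the median of all features kept only Agt and Atp6ap2 among 12320 genes tested. Against the median of the features with a single gene symbol, levels were -1.14 for Agtr1a, -0.74 for Agtr1b, -1.35 for Agtr2, 0.028 for Agt, -0.82 for Ace, -1.12 for Mas1 and 5.26 for Atp6ap2. Of 42 changes, 24 turned sign with at least 1 array left out. For LPS minus DMSO these ran from -0.203 to 0.00167 for Ace, -0.0217 to 0.228 for Agtr1a and -0.0233 to 0.152 for Mas1. For telmisartan minus DMSO these ran from -0.0933 to 0.172 for Ace, -0.102 to 0.0583 for Agtr1a, -0.0583 to 0.0567 for Agtr1b and -0.0183 to 0.0867 for Agtr2. For telmisartan+LPS minus DMSO these ran from -0.158 to 0.0117 for Ace, -0.0767 to 0.148 for Agtr1a, -0.0683 to 0.0967 for Agtr1b, -0.0283 to 0.0967 for Agtr2 and -0.08 to 0.095 for Mas1. For telmisartan+LPS minus LPS these ran from -0.085 to 0.12 for Ace, -0.05 to 0.08 for Agt, -0.215 to 0.0483 for Agtr1a and -0.125 to 0.04 for Agtr1b. For telmisartan+LPS minus telmisartan these ran from -0.255 to 0.01 for Ace, -0.045 to 0.195 for Agtr1a, -0.0617 to 0.103 for Agtr1b and -0.0533 to 0.0767 for Agtr2. For the interaction these ran from -0.148 to 0.117 for Ace, -0.168 to 0.095 for Agtr1a, -0.118 to 0.0467 for Agtr1b and -0.123 to 0.0383 for Atp6ap2. With array medians subtracted, Agtr1b for telmisartan minus DMSO was at 0.00333, where the reported change was -0.00667. That shift follows from the medians subtracted, which were 4.13, 4.08 and 4.10 with DMSO and 4.08, 4.11 and 4.09 with telmisartan. Why single arrays differ was not tested. The count of all genes called moved more: with trend and robust options telmisartan+LPS had 14 calls over LPS, 164 over telmisartan and 89 over DMSO, and the interaction 1, where the reported counts were 0, 58, 40 and 0. Without dim genes telmisartan+LPS had 144 over telmisartan and 83 over DMSO, and with the compared groups alone 35 over telmisartan. Without LPS replicate 3 there were 5 over LPS and 3 in the interaction, and without telmisartan replicate 3 there were 31 over telmisartan. No label pairs arrays across groups, but the running numbers of the titles fall into 3 sets of all 4 treatments, and these sets were added as a replicate block after seeing the data. The block leaves each change as it was. With it 0 renin-angiotensin genes were called, their lowest adjusted p was 0.423 in limma, and the counts over all genes were 91 for LPS minus DMSO, 54 and 40 for telmisartan+LPS over telmisartan and over DMSO, and 0 in the remaining comparisons. Over all genes, deviations from the group means correlated at -0.05 to 0.08 within sets (18 pairs of arrays, 0 over 0.1) and at -0.07 to 0.07 between sets (36 pairs), so the numbers were not taken to pair the arrays. Single genes can differ from this. With the block the SE of LPS minus DMSO fell from 0.137 to 0.0985 for Ace and rose for Agt and Agtr2. The 3 arrays per group, the low signal of the 5 genes below the array median and the single treatment time limit what could be detected.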
